A study of Homo sapiens with 24 samples.

Results

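This account follows 10 keratin genes of the 19702 genes in the count table, namely KRT6A, KRT6B, KRT17, KRT7, KRT8, KRT18, KRT19, KRT4, KRT5 and KRT81. They were listed by symbol and matched to their Ensembl gene identifiers. The genes were chosen by their measured levels and changes in these libraries, among them the fall of KRT6A and the rise of KRT4 in treated PC9 cells. The values of those 2 genes against control are therefore given as a description without p-values, and the number of listed genes that changed is no independent evidence. Adjusted p-values of the other listed genes rest on these same libraries and are no independent evidence either.

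RNA sequencing covered PC9 and H1975, established human lung adenocarcinoma cell lines, both carriers of activating EGFR mutations. Each line was cultured for 24 h as a control, with almonertinib (a covalent inhibitor of mutant EGFR), with paclitaxel (a drug that stabilises microtubules) or with both. The single-drug doses were 2 nM almonertinib and 0.3 nM paclitaxel in PC9, and 1 nM of either drug in H1975. For the combination the labels give no separate dose of either drug. Each of the 8 groups had 3 libraries, and each line is a single cell line, so a difference between the lines is one of line and dose together. The labels do not describe the repeats as separate cultures. A p-value here thus reflects only how far single libraries scatter, and that scatter may be technical.

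Keratins are the intermediate filament proteins of epithelial cells, and each filament is built from pairs of a type I and a type II chain. KRT8 and KRT18 pair in simple epithelia, where KRT7 and KRT19 are added in glands, ducts and airways. KRT6A, KRT6B and KRT17, with KRT16, are the stress keratins that epidermis makes after wounding. KRT4 pairs with KRT13 in moist stratified linings such as the oesophagus, KRT5 pairs with KRT14 in basal cells, and KRT81 is a hair keratin.

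The read counts of KRT6A, KRT6B and KRT6C rest on near-identical copies, so the stretch of their coding sequence in which they differ most densely is shown. It covers coding bases 656 to 745 in exon 2 of 9, read 5′ to 3′ on the minus strand of GRCh38 chromosome 12, and capitals mark the 10 positions at which the copies are not all alike. The KRT6A copy lies at chr12:52491532-52491621, the KRT6B copy at chr12:52450416-52450505 and the KRT6C copy at chr12:52472076-52472165.
KRT6A: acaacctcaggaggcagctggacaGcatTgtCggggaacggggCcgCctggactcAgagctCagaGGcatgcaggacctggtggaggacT
KRT6B: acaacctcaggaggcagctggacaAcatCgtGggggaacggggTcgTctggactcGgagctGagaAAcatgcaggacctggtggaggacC
KRT6C: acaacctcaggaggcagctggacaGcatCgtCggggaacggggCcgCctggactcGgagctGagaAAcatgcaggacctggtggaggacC
Over the whole coding sequence of 1692 bases the 3 copies differ at only 51 positions, and the longest run without a difference is 269 bases. KRT6A and KRT6B are 97.5% identical there. Of all 75-base windows of the KRT6A transcript, 17.4% occur unchanged in KRT6B and 25.3% in KRT6C. Of its 150-base windows the shares are 5.6% and 9.3%, so the overlap depends on read length. For KRT6B, 34.0% of 75-base and 12.8% of 150-base windows occur in KRT6C. A read from such a window cannot be assigned to a single copy, so the split between KRT6A and KRT6B is uncertain, and their sum is given beside the main results. KRT6C itself had 19 counts over the 3 PC9 controls, 3 with almonertinib, 13 with paclitaxel and 2 with the combination, and did not pass the filter on low counts.

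Levels are given as CPM, the usual depth-scaled read count, with TMM factors over the 24 libraries, and levels of different genes are compared only per kb of transcript. Library totals ran from 14232299 to 24245314 counts. Within each line, 7 of the 24 libraries correlated more closely with a library of another group than, on average, with their own. The first H1975 almonertinib library stood furthest apart (mean r = 0.960 with its own group, and up to 0.981 outside it). All 7 epithelial marker genes checked had counts in both lines, with summed levels of 1490 to 2457 CPM per library. Of 19 markers of other cell types 16 had a count in PC9, with a sum of 33.0 to 51.4 CPM, and 14 had a count in H1975, with a sum of 15.9 to 27.2 CPM. In PC9 that sum was 35.29 to 39.81 CPM in controls, 40.71 to 49.85 with almonertinib, 33.01 to 35.3 with paclitaxel and 49.35 to 51.44 with the combination, and its part in the results was not tested. The fibroblast genes COL1A2 and LUM and the melanocyte gene MLANA were at 0 in both lines. In bulk RNA, fewer cells that make a keratin and less RNA of it per cell cannot be told apart.

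Simple keratins made up nearly all keratin RNA in both lines. In PC9 controls the level per kb was 5193 ± 565 (SD, n = 3) for KRT8, 3990 ± 273 for KRT18, 3157 ± 161 for KRT7 and 1932 ± 231 for KRT19. KRT17 followed at 381 ± 113, then KRT6A at 52.7 ± 7.70, KRT6B at 29.2 ± 3.12, KRT81 at 1.06 ± 0.342, KRT4 at 0.374 ± 0.0894 and KRT5 at 0.137 ± 0.0567. No library of a gene in this order overlapped those of the next. Treatment changed the order. With almonertinib, KRT4 stood above KRT6B and KRT6A, KRT6B stood above KRT6A and overlapped KRT81, and the libraries of KRT7, KRT18 and KRT19 overlapped from neighbour to neighbour. With paclitaxel KRT7 and KRT18 overlapped, as did KRT81 and KRT4, and with the combination KRT6B and KRT6A overlapped.

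**Figure D1:**
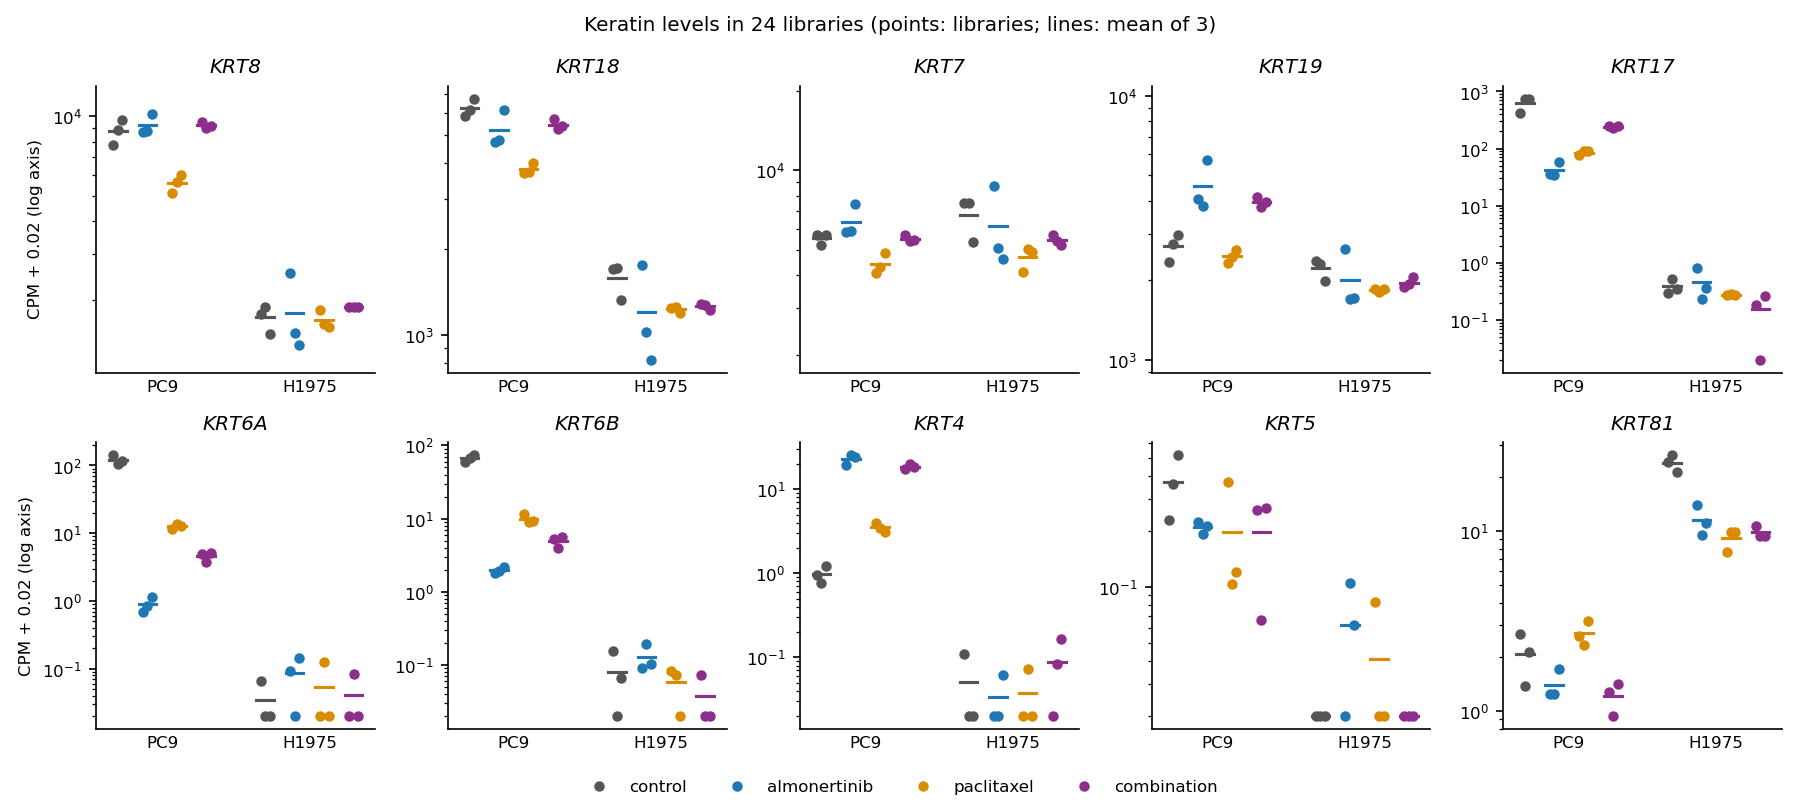
CPM of each keratin in every library, on a log axis with 0.02 CPM added so that libraries at 0 can be drawn. Points are libraries, coloured by treatment, and lines are means of 3. KRT6A, KRT6B and KRT17 are highest in the PC9 controls, KRT4 is highest in PC9 with almonertinib or the combination, and KRT81 is highest in the H1975 controls.

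H1975 had almost none of the stratified and stress keratins followed here, namely KRT6A, KRT4, KRT6B, KRT5 and KRT17. Over its 12 libraries KRT6A had 8 counts, KRT4 8, KRT6B 14, KRT5 4 and KRT17 68. For KRT6A this is 0.0350 CPM by plain totals (exact Poisson 95% interval 0.0151 to 0.0689, counting error only). In PC9 the same genes had 7123, 2906, 4257, 51 and 52747 counts. No fold change is given for these 5 genes in H1975, where none passed the count filter, and KRT5 did not pass it in PC9 either. KRT5 ranged from 0.0459 to 0.496 CPM over the PC9 libraries.

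Between the untreated lines, 2 of the 5 keratins measured in both were higher in PC9 (34.9% of the 13380 genes tested) and 1 was lower (33.8%). KRT8 (ENSG00000170421, GRCh38 chromosome 12, 52897187 to 52949954) measured 7767, 8849 and 9666 CPM in the PC9 controls and 1781, 1896 and 1498 CPM in the H1975 controls. KRT18 (ENSG00000111057, chromosome 12, 52948871 to 52952901), its filament partner, measured 5858, 6142 and 6698 CPM against 1706, 1716 and 1320 CPM. All PC9 libraries lay above all H1975 libraries for both genes. PC9 was higher by 2.34 ± 0.19 on the log2 scale for KRT8 and by 1.98 ± 0.20 for KRT18, both called, where 68.7% of all genes were called in either direction. KRT7 differed by −0.29 (95% interval −0.69 to 0.11) and KRT19 by 0.27 (−0.08 to 0.62), and neither was called. After removal of a trend over genes in length and GC, KRT7 was called (−0.34, edgeR adjusted p = 0.00143). KRT81 was lower in PC9 by −3.53 ± 0.22 and called. KRT8 and KRT18 overlap on opposite strands, as do KRT81 and KRT86, and KRT7 and its antisense gene KRT7-AS. The strand of counting is not given in the sources used here, so reads of such partners cannot be told apart where the genes overlap. For KRT8 and KRT18 the shared stretch is only 52948871 to 52949954. KRT7 also overlaps KRT86 on the same strand.

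The stress keratins of PC9 were lower in all 3 treatments. A gene is said to have risen or fallen where its edgeR adjusted p was under 0.05, and its log2 fold change is followed by an approximate standard error. With almonertinib 2 of the 9 keratins tested rose and 3 fell, where 28.9% of all 12796 genes rose and 27.8% fell, 56.7% in all. With paclitaxel 1 rose and 6 fell, where 27.0% of all genes rose and 28.0% fell, 55.0% in all. With the combination 2 rose and 4 fell, where 24.7% of all genes rose and 26.0% fell, 50.7% in all. The rule used these contrasts, so nothing is read from the counts, and the single changes are described. The median log2 fold change of the 3 listed stress keratins, without KRT16, was −5.08 with almonertinib, −2.90 with paclitaxel and −3.77 with the combination. The medians over all genes were 0.03, −0.01 and 0.00. The 3 comparisons share their control libraries.

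KRT6A (ENSG00000205420, chromosome 12, 52487174 to 52493257), the type II stress keratin, measured 141, 107 and 117 CPM in the PC9 controls. With almonertinib it measured 0.665, 0.826 and 1.12 CPM, with paclitaxel 11.7, 13.7 and 12.7 CPM, and with the combination 4.99, 3.81 and 5.05 CPM. The 4 groups did not overlap, and the almonertinib libraries were lowest, at 13 to 23 raw counts each. The log2 fold changes against control were −7.11 ± 0.18, −3.29 ± 0.13 and −4.73 ± 0.15. With the counts of KRT6A, KRT6B and KRT6C summed they were −6.03, −3.07 and −4.31.

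KRT6B (ENSG00000185479, chromosome 12, 52446651 to 52452126), the second copy, measured 59.1, 67.5 and 73.3 CPM in the controls. It measured 1.79, 1.91 and 2.14 CPM with almonertinib, 11.4, 8.99 and 9.39 CPM with paclitaxel and 5.18, 3.90 and 5.64 CPM with the combination. The 4 groups stood in the same order as for KRT6A and did not overlap. The log2 fold changes of KRT6B were −5.08 ± 0.16, −2.76 ± 0.14 and −3.77 ± 0.15. In the controls KRT6A was above KRT6B per kb in every library, whereas with almonertinib every library had it below (0.288 to 0.484 against 0.785 to 0.938 CPM per kb).

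KRT17 (ENSG00000128422, chromosome 17, 41619441 to 41624842), the type I stress keratin, was the most abundant of these genes. It measured 414, 736 and 737 CPM in the controls, 36.1, 35.1 and 57.4 CPM with almonertinib, 76.7, 90.1 and 89.1 CPM with paclitaxel, and 252, 230 and 244 CPM with the combination. The groups did not overlap, but here the combination lay nearest to the control. The log2 fold changes of KRT17 were −3.87 ± 0.21, −2.90 ± 0.20 and −1.38 ± 0.19. Short windows of KRT17 also occur in its pseudogenes, the most being 2.41% of 75-base windows in KRT17P3, which is not in the count table. KRT8 shares more, with 11.78% of its windows in KRT8P3 and 4.34% in KRT8P33. For KRT18 the most is 1.68%, in KRT18P11. These pseudogenes are not in the count table either.

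**Figure D2:**
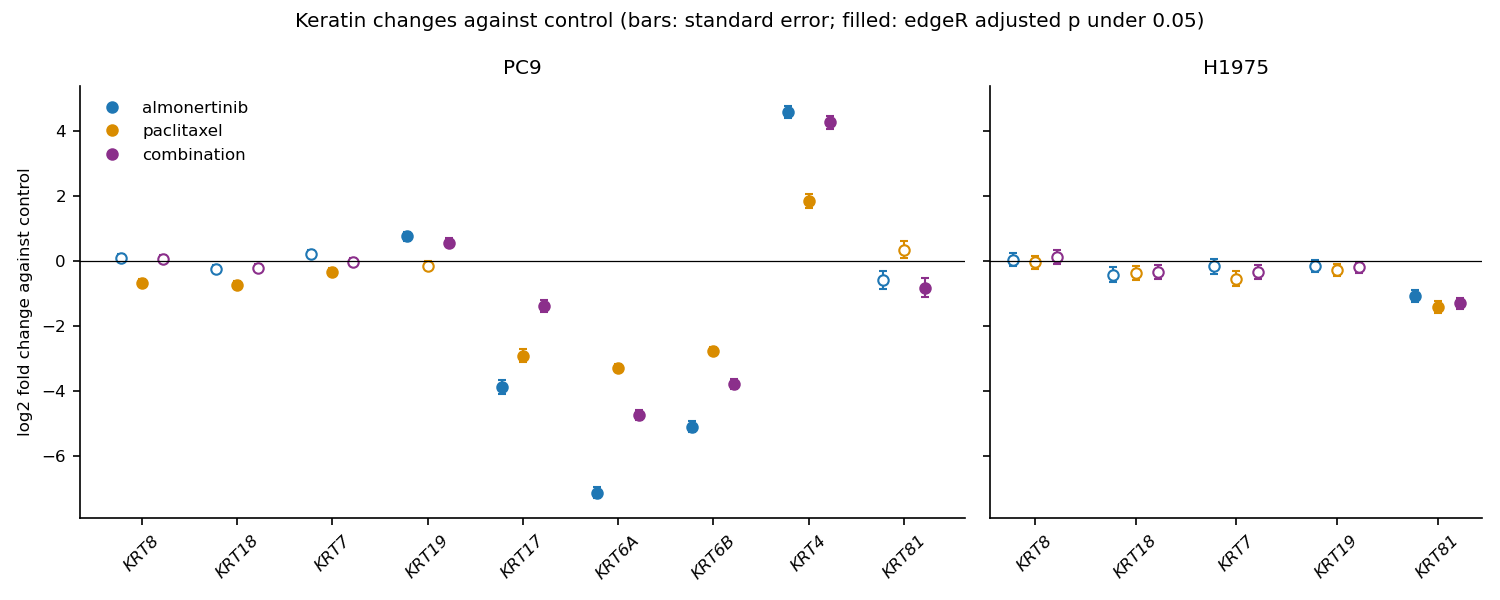
Log2 fold change against control of the keratins tested in PC9 (9 genes) and H1975 (5 genes), with the standard error as a bar; filled points have an edgeR adjusted p under 0.05. In PC9 KRT6A, KRT6B and KRT17 lie far below 0 and KRT4 far above it in all 3 treatments, while in H1975 KRT81 has the filled points.

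As a share of the counts of all 10 keratins, KRT6A, KRT6B and KRT17 together made up 3.38 ± 0.554% (SD, n = 3) in PC9 controls. KRT16, a stress keratin outside the 10, is left out of this share. It fell less than each of them, by log2 changes of −1.98 with almonertinib, −1.45 with paclitaxel and −1.20 with the combination. The share of KRT6A, KRT6B and KRT17 was 0.177 ± 0.0242% with almonertinib, 0.659 ± 0.0322% with paclitaxel and 1.03 ± 0.0270% with the combination. KRT17 carried most of it. Without KRT17 the shares were 0.808%, 0.0111%, 0.139% and 0.0393%, so that the combination then lay below paclitaxel and not above it. In H1975 the share was between 0.00164% and 0.00548% as a group mean.

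The combined level of all 10 keratins changed less than the stress keratin share. With TMM factors it was 24040 ± 1847 CPM in PC9 controls and 16390 ± 1142 CPM with paclitaxel. It was 25470 ± 3571 CPM with almonertinib and 24440 ± 786 CPM with the combination. The 10 keratins held 2.22 ± 0.115% of all counts in PC9 controls, 2.43 ± 0.0942% with almonertinib, 1.79 ± 0.0843% with paclitaxel and 2.38 ± 0.0665% with the combination. In H1975 they held 1.19 ± 0.0612%, 1.11 ± 0.187%, 0.961 ± 0.0476% and 1.10 ± 0.0156% in the same order. The level per kb of type II chains over that of type I chains was 1.34 in PC9 controls and 1.33 to 1.39 in the treated groups. In H1975 it was 1.87 in controls and 1.74 to 2.04 with treatment, and KRT7 alone made up 51.3 ± 2.01% of its control keratin level per kb.

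Among the simple keratins of PC9, KRT19 alone rose with almonertinib. KRT19 (ENSG00000171345, chromosome 17, 41523617 to 41528308), a type I keratin, measured 2339, 2740 and 2975 CPM in the controls and 4063, 3839 and 5702 CPM with almonertinib. With paclitaxel it measured 2334, 2456 and 2600 CPM and with the combination 4150, 3802 and 3965 CPM. All almonertinib and combination libraries lay above all controls, while the paclitaxel libraries lay among the controls. It rose by 0.76 ± 0.14 with almonertinib (1.70-fold) and by 0.56 ± 0.14 with the combination (1.47-fold), and the change with paclitaxel was −0.14 ± 0.14. Its share of the keratin level per kb went from 13.1 ± 0.632% in controls to 20.5 ± 1.63%, 17.55 ± 0.253% and 18.9 ± 0.246%.

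**Figure D3:**
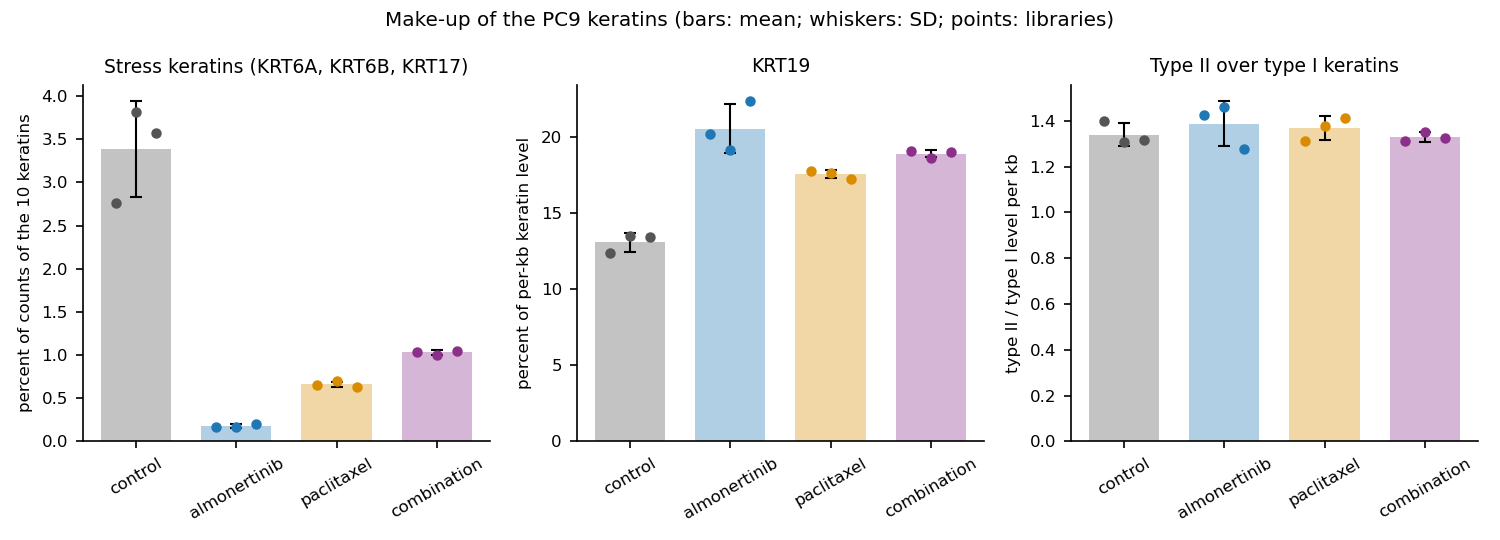
Make-up of the keratins in PC9: the percentage of keratin counts from KRT6A, KRT6B and KRT17, the percentage of the per-kb keratin level from KRT19, and the ratio of type II to type I levels per kb. Bars are means of 3 libraries, whiskers the SD and points libraries. The stress keratin share drops from 3.38% in controls to 0.177% with almonertinib, while the ratio stays between 1.33 and 1.39.

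KRT8, KRT18 and KRT7 fell with paclitaxel and were not called with the other treatments. KRT8 measured 5128, 5627 and 6002 CPM with paclitaxel, below all 3 controls, and fell by 0.67 ± 0.12 on the log2 scale. KRT18 measured 3696, 3732 and 4009 CPM, also below all controls, and fell by 0.73 ± 0.12. KRT7 (ENSG00000135480, chromosome 12, 52232520 to 52252186) measured 5705, 5210 and 5695 CPM in controls and 4066, 4308 and 4875 CPM with paclitaxel, and fell by 0.35 ± 0.12. With almonertinib KRT8 changed by 0.09 ± 0.12, KRT18 by −0.24 ± 0.12 and KRT7 by 0.21 ± 0.12, and with the combination these values were 0.07 ± 0.12, −0.20 ± 0.12 and −0.02 ± 0.12. KRT18 with almonertinib was called where the repeat number was a block (−0.25, edgeR adjusted p = 0.0468), and also without almonertinib library 3 (−0.36, edgeR adjusted p = 0.00116).

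Transcript length moved with these paclitaxel results. The deviation of each gene from its PC9 mean correlated with transcript length in the paclitaxel libraries (Spearman rho 0.27 to 0.326 across genes) and in the opposite direction in the controls (−0.242 to −0.141). It was −0.401 in almonertinib library 3 and 0.0423 and 0.158 in the other almonertinib libraries, and −0.103 to 0.25 with the combination. The longest transcripts, which were used here, have 1390 to 1754 bases for KRT7, KRT18 and KRT19 and 2437 bases for KRT8. With a trend on length and GC content removed, KRT8 changed by −0.37 and KRT18 by −0.36 and both were still called, but KRT7 was at −0.01. KRT19 then rose by 0.24 (edgeR adjusted p = 0.00615) in place of −0.14. KRT8 was then also called higher with almonertinib (0.40, edgeR adjusted p = 0.000137) and with the combination (0.25, edgeR adjusted p = 0.00726). The KRT7 call was also lost in a fit of all 24 libraries (edgeR adjusted p = 0.175) and without any of 4 single libraries, controls 1 and 3 and paclitaxel libraries 1 and 2 (edgeR adjusted p 0.0724 to 0.130).

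In the PC9 almonertinib group library 3 was the highest for KRT7 (7420 CPM), KRT8 (10229 CPM), KRT18 (6154 CPM) and KRT19 (5702 CPM) together. Its TMM factor was 0.856, the lowest of the 12. By plain library totals the 10 keratins summed to 23430 to 25310 CPM over the 3 libraries of that group, and with TMM factors to 23400 to 29590 CPM.

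KRT4 rose in all 3 treatments of PC9. KRT4 (ENSG00000170477, chromosome 12, 52806549 to 52814551), a type II keratin of moist stratified epithelium, measured 0.941, 0.745 and 1.20 CPM in controls, which is 11 to 18 raw counts per library. With almonertinib it measured 19.5, 25.4 and 24.1 CPM, with paclitaxel 3.96, 3.43 and 3.11 CPM and with the combination 17.2, 20.1 and 18.4 CPM. The almonertinib and combination libraries overlapped each other and lay above the paclitaxel libraries, which lay above the controls. The log2 fold changes were 4.58 ± 0.19, 1.84 ± 0.22 and 4.26 ± 0.19. No 75-base window of KRT4 occurs in KRT3, KRT6A, KRT6B or KRT86.

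KRT3, a corneal keratin gene of the same chromosome, was among the other keratins that rose, so the 250 bases before both starts are shown, in RefSeq coordinates of GRCh38.p14 on the minus strand, read 5′ to 3′. The KRT4 window is chr12:52814117-52814366 and the KRT3 window chr12:52796118-52796367. Capitals mark TATAA, which was searched on both strands, as was the AP-1 site TGANTCA.
KRT4: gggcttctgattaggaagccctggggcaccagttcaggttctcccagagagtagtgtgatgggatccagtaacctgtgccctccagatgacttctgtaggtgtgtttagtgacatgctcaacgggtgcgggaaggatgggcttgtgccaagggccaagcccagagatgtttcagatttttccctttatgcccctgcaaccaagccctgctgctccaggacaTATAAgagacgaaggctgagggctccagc
KRT3: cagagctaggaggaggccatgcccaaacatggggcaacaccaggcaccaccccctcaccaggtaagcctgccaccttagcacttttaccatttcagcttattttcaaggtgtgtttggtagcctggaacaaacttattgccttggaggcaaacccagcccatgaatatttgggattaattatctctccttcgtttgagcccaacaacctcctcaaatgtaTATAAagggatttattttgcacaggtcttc
TATAA begins 29 bases before the start of KRT4 and 30 bases before that of KRT3. Neither window holds TGANTCA. Over all 35116 promoter windows of the same length, 18.9% hold TATAA and 6.57% hold TGANTCA, and such a match is only a description of the letters. Promoter sequences were matched for 3 of the 10 keratins (KRT4, KRT5 and KRT8), and the windows of KRT5 and KRT8 held neither motif.

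KRT81 (ENSG00000205426, chromosome 12, 52285913 to 52291534), the hair keratin gene, measured 2.67, 1.35 and 2.12 CPM in PC9 controls. It measured 1.23, 1.22 and 1.70 CPM with almonertinib, 2.61, 2.30 and 3.16 CPM with paclitaxel and 1.26, 0.917 and 1.39 CPM with the combination. The combination overlapped the controls by a single control library. KRT81 fell by 0.81 ± 0.28 on the log2 scale with the combination, with values of −0.58 ± 0.28 for almonertinib and 0.35 ± 0.26 for paclitaxel. With the length and GC trend removed both were called (−0.65, edgeR adjusted p = 0.0288, and 0.67, edgeR adjusted p = 0.0181), and almonertinib was also called without almonertinib library 3 (−0.74, edgeR adjusted p = 0.0402) or control 2 (−0.80, edgeR adjusted p = 0.0234). The combination call was lost without control 1 (−0.55), control 3 (−0.81) or combination library 2 (−0.65), with edgeR adjusted p from 0.0522 to 0.165. It was also lost with KRT81 and KRT86 summed (−0.16, edgeR adjusted p = 0.498), copies that are 93.6% identical in coding sequence.

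The combination was next compared with each single drug in PC9. The genes were chosen by changes in these same libraries, so the values of the stress keratins and KRT4 are a description. Against almonertinib alone, 3 of the 9 keratins were higher and none was lower, where 10.3% of all genes were higher and 9.74% lower, 20.1% in all. These were the 3 stress keratins. KRT17 was higher by 2.48 ± 0.20, KRT6A by 2.38 ± 0.21 and KRT6B by 1.31 ± 0.18. In each of them all 3 combination libraries lay above all 3 almonertinib libraries. The other 6 were not called, and KRT4 differed by −0.32 ± 0.14 and KRT19 by −0.20 (95% interval −0.53 to 0.12). For KRT4 the difference was −0.43 with a length and GC trend removed and −0.42 without almonertinib library 1. Both passed the threshold and are given as a description only.

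Against paclitaxel alone, all 9 keratins tested were called, 6 higher and 3 lower, where 21.7% of all genes were higher and 22.4% lower, 44.1% in all. KRT4 was higher by 2.42 ± 0.16, KRT17 by 1.52 ± 0.19, KRT8 by 0.74 ± 0.12, KRT19 by 0.70 ± 0.14, KRT18 by 0.53 ± 0.12 and KRT7 by 0.33 ± 0.12. KRT6A was lower by −1.44 ± 0.15, KRT81 by −1.16 ± 0.27 and KRT6B by −1.01 ± 0.15. The 3 stress keratins thus did not stand on the same side. The KRT7 call was lost with the length and GC trend removed (0.01, edgeR adjusted p = 0.927), in the fit of all 24 libraries (0.32, edgeR adjusted p = 0.218), and without paclitaxel library 1 or 2 or any of the 3 combination libraries (edgeR adjusted p 0.0737 to 0.166). The KRT81 call was lost with KRT86 added (−0.36, edgeR adjusted p = 0.118).

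The drug interaction is the distance, on the log2 scale, of the combination from the sum of the single-drug changes. It was positive and called for 5 of the 9 keratins and negative and called for 1, where it was positive and called for 22.1% of all genes and negative and called for 23.4%, 45.5% in all. For KRT6A the single drugs summed to −10.40 and the combination was −4.73, an interaction of 5.67 ± 0.24. KRT17 had an interaction of 5.39 ± 0.29 and KRT6B of 4.08 ± 0.22. KRT4 had −2.16 ± 0.26, from a sum of 6.42 and a combination of 4.26. All 4 were called and are given as a description, since the contrast is built from the comparisons with control by which the genes were chosen. With almonertinib alone KRT6A was at most 1.12 CPM and KRT6B at most 2.14 CPM.

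KRT18 (0.78 ± 0.17, edgeR adjusted p = 0.00172) and KRT8 (0.66 ± 0.17, 0.00576) also had positive interactions. That of KRT8 was lost with the length and GC trend removed (0.22, edgeR adjusted p = 0.098) and in the fit of all 24 libraries (0.65, edgeR adjusted p = 0.0521). KRT7 (0.12, 95% interval −0.28 to 0.53), KRT19 (−0.06, −0.52 to 0.40) and KRT81 (−0.58, −1.47 to 0.31) were not called, but with that trend removed KRT19 was called (−0.33, edgeR adjusted p = 0.00904). With the 3 KRT6 copies summed the interaction was 4.79.

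**Figure D4:**
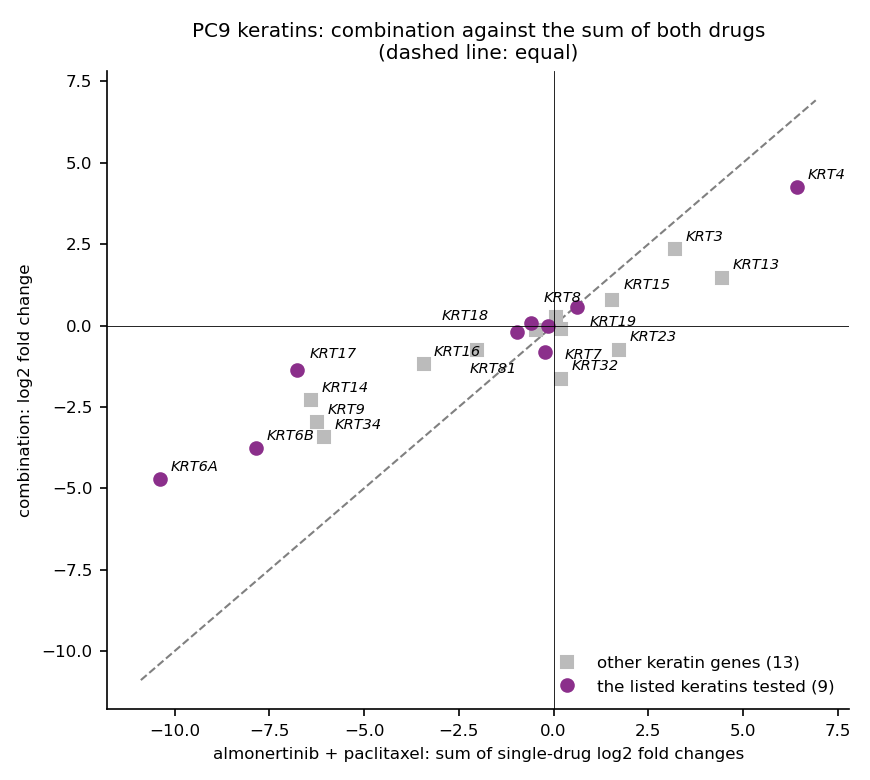
Log2 fold change with the combination (vertical) against the sum of the log2 fold changes with almonertinib and with paclitaxel (horizontal) in PC9, for the 9 keratins tested (purple) and 13 other keratin genes (grey squares). The dashed line marks equality; KRT6A, KRT6B, KRT17 and, among the others, KRT14, KRT9, KRT34 and KRT16 lie well above it, and KRT4, KRT13, KRT23, KRT32, KRT3 and KRT15 lie below it.

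In H1975 the simple keratins were not called in any treatment, and KRT81 fell in all 3. Of the 5 keratins tested, 1 fell and none rose in each treatment, each time KRT81. Of all 12345 genes 1.35% rose and 0.599% fell with almonertinib (1.95% in all), 0.446% rose and 0.194% fell with paclitaxel (0.64%), and 1.77% rose and 0.697% fell with the combination (2.46%). KRT81 measured 24.3, 26.4 and 21.4 CPM in controls, 14.0, 9.52 and 11.04 CPM with almonertinib, 7.60, 9.85 and 9.88 CPM with paclitaxel and 10.7, 9.45 and 9.40 CPM with the combination. Every treated library lay below every control, and the treated groups overlapped. The log2 fold changes were −1.08 ± 0.18 (edgeR adjusted p = 0.00366), −1.41 ± 0.18 (0.000855) and −1.30 ± 0.18 (0.00119). KRT81 is among the genes chosen by levels and changes in these libraries, so these p-values are no independent evidence.

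The almonertinib call of KRT81 was lost when only those 2 groups were fitted (−1.11, edgeR adjusted p = 0.0734), and the other calls held in each of the 15 alternatives run. With KRT86 summed in, the changes were −0.84, −1.20 and −1.07, all called. The interaction of KRT81 in H1975 was 1.19 ± 0.26 (edgeR adjusted p = 0.0467), the only one called among the 5 keratins where 0.259% of all genes were called higher and 0.413% lower, 0.672% in all. It passed the threshold by little and was lost without any single library of H1975 except the first almonertinib library (edgeR adjusted p 0.0673 to 0.198), with the replicate block (0.0969), without a count filter (0.0503) and with KRT86 summed in (0.128).

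None of the simple keratins of H1975 was called against control. With almonertinib KRT8 measured 2541, 1507 and 1351 CPM, KRT18 1761, 1023 and 817 CPM, KRT7 8746, 5067 and 4620 CPM and KRT19 2621, 1701 and 1715 CPM. The first library, which stood apart from its group, was the highest for each. Without it KRT18 fell by 0.77 on the log2 scale (edgeR adjusted p = 0.0121), against −0.42 ± 0.22 (0.576) with it, and KRT8 went from 0.04 to −0.26 without being called. With paclitaxel KRT7 measured 4098, 5035 and 4898 CPM, below all 3 controls at 7504, 7498 and 5347 CPM, and changed by −0.55 ± 0.23 (edgeR adjusted p = 0.505). The paclitaxel libraries of KRT18 and KRT19 also lay below all 3 controls, with changes of −0.37 ± 0.22 and −0.28 ± 0.18. With the length and GC trend removed KRT7 was called (−0.50, edgeR adjusted p = 0.0207), as was KRT18 with almonertinib (−0.42, edgeR adjusted p = 0.0475).

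Between the combination and either single drug no keratin was called in H1975, and edgeR called 0 of all 12345 genes in both comparisons (0.0%). At an unadjusted p under 0.05 there were 1230 genes against almonertinib and 1704 against paclitaxel, and DESeq2 called 41 and 481. KRT81 differed by −0.22 (95% interval −0.64 to 0.20) from almonertinib and by 0.11 (−0.31 to 0.53) from paclitaxel.

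Each treatment effect was then set between PC9 and H1975 for the 5 keratins measured in both. In each treatment 1 of them was higher in PC9 and none lower. Of all 13380 genes 5.53% were higher and 11.0% lower for almonertinib (16.6% in all), 9.9% and 7.21% for paclitaxel (17.1%), and 6.99% and 11.0% for the combination (18.0%). The almonertinib effect on KRT19 was higher in PC9 by 0.90 ± 0.23 (edgeR adjusted p = 0.00991) and the combination effect by 0.75 ± 0.23 (0.0284). The paclitaxel effect on KRT81 was higher in PC9 by 1.77 ± 0.30 (edgeR adjusted p = 0.000596), where PC9 had 0.35 and H1975 −1.41. With KRT86 summed in, the combination effect on KRT81 was also called higher in PC9 (0.90, edgeR adjusted p = 0.0181). It was 0.48 and not called for KRT81 alone. The combination difference of KRT19 was lost without any of 5 single libraries, namely control 1 of either line, combination library 1 of either line or H1975 combination library 2 (edgeR adjusted p 0.0521 to 0.0700). For KRT8 the paclitaxel effect differed by −0.62 (95% interval −1.15 to −0.09) and was not called by edgeR, though DESeq2 called it (−0.71, adjusted p = 0.0329). Without H1975 almonertinib library 1 the almonertinib effect was also called higher in PC9 for KRT18 (0.56, edgeR adjusted p = 0.0414, against 0.15 with it) and KRT7 (0.72, edgeR adjusted p = 0.0179, against 0.34).

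Of 40 further keratin genes 13 passed the count filter in PC9. With almonertinib 3 rose and 5 fell (56.7% of all genes called), with paclitaxel 4 rose and 6 fell (55.0%), and with the combination 3 rose and 6 fell (50.7%). KRT3, KRT13 and KRT15 rose and KRT9, KRT10, KRT14, KRT16 and KRT34 fell in each of the 3 treatments, which share their controls. KRT16, the stress keratin that pairs with KRT6, went from 95.7 ± 18.1 CPM (SD, n = 3) to 24.2 ± 8.77 with almonertinib, 35.4 ± 1.12 with paclitaxel and 41.9 ± 2.12 with the combination. Its log2 fold changes were −1.98 ± 0.18, −1.45 ± 0.18 and −1.20 ± 0.18. KRT10, a keratin of differentiating epidermis, changed by −1.01 ± 0.11 with almonertinib and −0.76 ± 0.11 with the combination.

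KRT3 rose by 2.30 ± 0.18 with almonertinib, 0.91 ± 0.18 with paclitaxel and 2.34 ± 0.17 with the combination, from 2.23 ± 0.157 CPM in controls to 11.02 ± 2.22, 4.29 ± 0.187 and 11.4 ± 0.431 CPM. The difference of KRT3 between the combination and almonertinib alone was not called (0.04 ± 0.15). KRT15, a basal keratin, rose by 0.81 ± 0.16, 0.72 ± 0.16 and 0.80 ± 0.16. KRT13 and KRT14, the usual partners of KRT4 and KRT5, had under 5 CPM on average and were chosen after their values were seen. KRT13 rose by 2.02 ± 0.31, 2.42 ± 0.30 and 1.47 ± 0.32, from 48 counts over the 3 controls, and KRT14 changed by −4.41 ± 0.26, −1.99 ± 0.20 and −2.30 ± 0.21, with 21 counts left over the 3 almonertinib libraries. In H1975 6 of the 40 passed the filter, and with almonertinib KRT15 fell by 0.73 ± 0.18 (edgeR adjusted p = 0.0496).

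**Figure D5:**
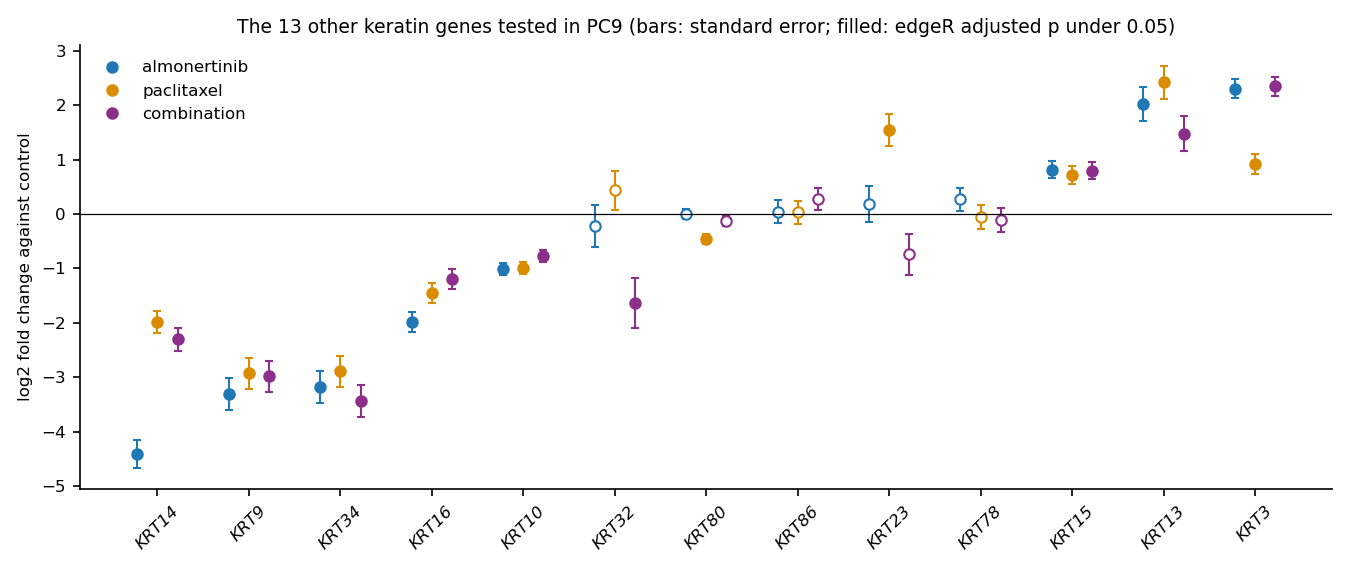
Log2 fold change against control of the 13 other keratin genes tested in PC9, ordered by the almonertinib value, with the standard error as a bar; filled points have an edgeR adjusted p under 0.05. KRT14 is the lowest with almonertinib at −4.41 and KRT3 the highest at 2.30.

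Keratin filaments are anchored to desmosomes and hemidesmosomes. Of 22 genes for these junctions and their linker proteins, 17 were tested in PC9, where 3 rose and 8 fell with almonertinib (56.7% of all genes called), 5 rose and 8 fell with paclitaxel (55.0%), and 4 rose and 7 fell with the combination (50.7%). COL17A1, the hemidesmosomal collagen, went from 23.9 ± 0.440 CPM in controls to 0.982 ± 0.0161, 3.72 ± 0.310 and 2.81 ± 0.242 CPM, with log2 fold changes of −4.59 ± 0.16, −2.70 ± 0.13 and −3.09 ± 0.14. LAMB3, a laminin chain, changed by −1.82 ± 0.12 with paclitaxel. Among the called genes with a mean of at least 5 CPM, DST rose most in each treatment. It rose by 1.46 ± 0.27 with almonertinib, 1.47 ± 0.27 with paclitaxel and 1.09 ± 0.28 with the combination. DSP, the desmosomal plakin that binds keratin filaments, rose by 0.66 ± 0.13 with almonertinib and 0.87 ± 0.13 with the combination. DSG2, a desmosomal cadherin, rose by 0.92 ± 0.16 with paclitaxel. In H1975 none of 17 was called with almonertinib (1.95% of all genes called) or with paclitaxel (0.64%). There PPL, the plakin periplakin, rose by 0.90 ± 0.20 with the combination (2.46% of all genes called).

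Of 26 regulators with known roles at keratin genes, 25 were tested in PC9, where 7 rose and 8 fell with almonertinib (56.7% of all genes called), 9 rose and 10 fell with paclitaxel (55.0%), and 12 rose and 6 fell with the combination (50.7%). FOSL1, an AP-1 subunit, went from 224 ± 49.7 CPM in controls to 40.8 ± 5.30, 89.5 ± 5.75 and 24.3 ± 2.16 CPM, with log2 fold changes of −2.45 ± 0.14, −1.35 ± 0.14 and −3.22 ± 0.15. KLF4, a factor of epithelial differentiation, changed by −2.77 ± 0.11 with almonertinib and −1.28 ± 0.10 with paclitaxel. It was higher by 1.94 ± 0.11 with the combination than with almonertinib alone, whereas FOSL1 was lower by −0.76 ± 0.14. CEBPA rose by 1.68 ± 0.11 and ELF3, an epithelial ETS factor, by 1.12 ± 0.12 with almonertinib. In H1975 FOSL1 changed by −1.17 ± 0.22 with almonertinib and −1.11 ± 0.22 with the combination, both called.

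Of 16 other intermediate filament genes 12 were tested in PC9, where 1 rose and 5 fell with almonertinib (56.7% of all genes called), 1 rose and 2 fell with paclitaxel (55.0%), and 5 rose and 4 fell with the combination (50.7%). SYNM, the filament protein synemin, fell by 0.67 ± 0.17 with almonertinib and rose by 0.92 ± 0.16 with the combination. The lamin gene LMNB1 fell by 0.82 ± 0.10 with the combination. None of 11 was called in H1975 against control, where 1.95% of all genes were called with almonertinib, 0.64% with paclitaxel and 2.46% with the combination.

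Across the 12 PC9 libraries the genes whose log2(CPM + 1) followed KRT6A most closely, of 9415 with a mean of at least 5 CPM, included OSBP2 (Pearson r = 0.997) and BCAR3 (0.996). For KRT4 they were SLC29A3 (0.992), CSF1 (0.989) and EPHX1 (0.989), and for KRT81 TRAP1 (0.927), BDH1 (0.922) and CPNE7 (0.915). In H1975 they were MYC (0.940), KLK6 (0.939) and CREB5 (0.936) for KRT81, of 9271 genes. These values are descriptions over 12 libraries in 4 groups, which share those groups.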

How the data were processed

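Per the labels, RNA from 24 libraries was extracted with TRIzol. The authors deposited 1 table of raw read counts per Ensembl gene, made with HISAT2 2.2.1 and HTSeq on GRCh38 per the submitters' processing notes; the HTSeq version, annotation and strand setting are not given in the sources used here. Symbols, lengths and coordinates came from GENCODE release 29. The 10 keratins, the lists and the tests were chosen with earlier results of these data known.

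Each line was fitted alone (edgeR 4.0.16, R 4.3.3; filterByExpr, TMM, quasi-likelihood test, 1 term per group), leaving 12796 genes in PC9 and 12345 in H1975. Differences between lines came from 1 joint fit of the 24 libraries. P-values were two-sided and Benjamini-Hochberg adjusted over all genes tested, and 16 comparisons were made. Of the other lists, up to 2 called genes per direction with the largest change and a mean of at least 5 CPM are named. One gene that this rule names is not reported here.

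The fits were tested on simulated data. Deviations of libraries with the same repeat number correlated by over 0.1 in all 3 pairs only between PC9 almonertinib and control (0.119, 0.106 and 0.394) and H1975 combination and control (0.110, 0.169 and 0.345), a hint from the data and not from the labels. Alternatives included DESeq2 1.42.0, RLE size factors, a stricter count filter or none, a repeat-number block, other sets of libraries, a length and GC trend removed (spline with 5 degrees of freedom) and each library left out. Sums of near-identical copies were added after seeing the data.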

Additional observations from a re-analysis of the deposited data

Results flagged for a closer look

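In 3 results a treatment effect differed between the lines by a test of the difference itself. The almonertinib effect on KRT19 was higher in PC9 by 0.90 on the log2 scale, with 0.76 in PC9 and −0.16 in H1975, and it stayed called in all 18 alternatives run (0.70 to 1.17). The combination effect on KRT19 was higher in PC9 by 0.75, with 0.56 in PC9 and −0.20 in H1975. That call was lost without control 1 or combination library 1 of either line, or H1975 combination library 2 (edgeR adjusted p 0.0521 to 0.0700). The paclitaxel effect on KRT81 was higher in PC9 by 1.77, with 0.35 in PC9 and −1.41 in H1975, and it stayed called in all 19 alternatives run (1.41 to 2.06). Doses differed between the lines, so line and dose cannot be told apart. KRT19 and KRT81 were chosen with these same libraries known, so these tests are no independent evidence.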

How the results depend on the processing

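Of 1640 values of single keratins under an alternative, 1568 kept their direction and their side of the threshold, 40 lost and 23 gained a call, and 1 reversed, KRT19 with paclitaxel in PC9, which was 0.241 with the length and GC trend removed. The counts of called keratins in PC9 stayed within 1.5 times. In H1975 the count with almonertinib was 2 with the length and GC trend removed, 0 with only the 2 groups compared and 1 to 2 without single libraries, and with paclitaxel it was 2 with that trend removed. The H1975 interaction count was 0 with the replicate block and 0 without a count filter, and 0 to 2 without single libraries. In the 2 pairs of groups whose repeat numbers correlated, the replicate block changed no other keratin call than KRT18 in PC9 with almonertinib (−0.25). Between the lines the almonertinib count was 1 to 3 without single libraries, the paclitaxel count 3 with the trend removed and 2 with DESeq2, and the combination count 0 to 1 without single libraries. Without KRT17 the stress keratin share was 0.808%, 0.0111%, 0.139% and 0.0393% in PC9 control, almonertinib, paclitaxel and combination, and 0.000608%, 0.00174%, 0.000767% and 0.000367% in H1975. Per kb it was 0.609% with paclitaxel and 0.997% with the combination in PC9. With plain library totals the summed keratin level was 17920 CPM in PC9 with paclitaxel and 11000 CPM in H1975 with the combination. The cause was not tested. KRT5 in both lines and KRT4, KRT6A, KRT6B and KRT17 in H1975 had too few counts to pass the filter.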
